A study of Mus musculus with 2 samples.

Results

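EP300 summits far from genes were taken from the optimal peak set of newborn mouse stomach. A summit, the base of highest signal in a peak, was kept when it lay over 100 kb from the nearest start of any protein-coding transcript of GENCODE M21, on chromosomes 1 to 19 or X. That left 845 of 7733 summits (10.9%) on those chromosomes, out of 7737 peaks in the whole set. EP300 was immunoprecipitated from whole stomach of strain B6NCrl mice on postnatal day 0, and the bound DNA was sequenced in 2 libraries that form 1 group, with no second tissue, age or genotype. The libraries share a biosample label and a donor label, so they may come from the same animals and their spread may be technical. Sex was not collected. The optimal set holds peaks that passed a test of reproducibility (the irreproducible discovery rate, IDR), and the conservative set is a second such list. An optimal peak counted as in the conservative set when that list held a peak with the same start, end and summit. Peak strength is the signal of the authors' peak caller, scaled separately for every list, so values are compared within a list. No read counts accompany the lists, so depth is unknown, and the values below are descriptions without tests over samples.

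EP300 is a histone acetyltransferase and co-activator that transcription factors recruit to enhancers and promoters. Enhancers of developmental regulators can lie far from their genes, in gene deserts or in the introns of neighbouring genes, and reach the promoter by chromatin looping. Distance alone does not show which gene a site acts on, so the genes named below are neighbours of a summit and not shown targets.

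The sequences at the strongest of these summits show what kind of DNA EP300 marked so far from coding genes. Each is the plus strand of mm10, 5′ to 3′, 100 bp to each side of the summit, named by the protein-coding genes with the nearest start on the left and on the right. Capitals mark matches, on either strand, to 8 short motifs whose share at far summits exceeded that 1000 bp away by the largest ratios: AP-1 (TGACTCA), the grainyhead factors GRHL (AACNGGTT), CEBP (TTGCGCAA or TTGCACAA), FOX (TGTTTAC), NKX (CACTTAA), PITX (GGATTA), KLF (GGGTGTGG) and one arm of the NFI site (TTGGCA). The first 8 are the strongest of the far summits whose sequence is shown, and the last is the strongest summit of the interval with most of them, between Rad51b and Zfp36l1.
Lpp–Tprg, chr16:25059297-25059497: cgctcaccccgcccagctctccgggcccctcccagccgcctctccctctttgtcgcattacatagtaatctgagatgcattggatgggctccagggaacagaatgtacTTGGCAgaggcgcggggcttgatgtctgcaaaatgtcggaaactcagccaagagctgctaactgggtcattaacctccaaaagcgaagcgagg
Nnmt–Zbtb16, chr9:48723623-48723823: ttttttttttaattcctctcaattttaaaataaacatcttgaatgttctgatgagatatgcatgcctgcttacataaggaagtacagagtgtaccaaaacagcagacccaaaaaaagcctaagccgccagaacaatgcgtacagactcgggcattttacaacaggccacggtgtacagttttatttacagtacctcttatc
Irf2bp2–Tomm20, chr8:126736603-126736803: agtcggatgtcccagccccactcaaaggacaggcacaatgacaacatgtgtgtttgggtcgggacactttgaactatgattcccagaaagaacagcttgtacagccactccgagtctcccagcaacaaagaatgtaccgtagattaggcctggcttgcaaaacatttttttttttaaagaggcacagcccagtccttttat
Slc30a5–Pik3r1, chr13:101092585-101092785: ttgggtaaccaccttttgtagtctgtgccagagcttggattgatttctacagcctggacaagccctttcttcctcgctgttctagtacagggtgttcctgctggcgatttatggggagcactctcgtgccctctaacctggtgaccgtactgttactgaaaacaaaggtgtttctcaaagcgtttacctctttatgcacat
Actbl2–Gpbp1, chr13:111373890-111374090: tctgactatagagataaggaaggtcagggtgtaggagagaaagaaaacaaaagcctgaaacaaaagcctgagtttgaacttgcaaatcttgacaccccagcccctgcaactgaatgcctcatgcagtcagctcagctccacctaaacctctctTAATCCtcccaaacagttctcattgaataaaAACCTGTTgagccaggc
Agtr1b–Tbl1xr1, chr3:21936053-21936253: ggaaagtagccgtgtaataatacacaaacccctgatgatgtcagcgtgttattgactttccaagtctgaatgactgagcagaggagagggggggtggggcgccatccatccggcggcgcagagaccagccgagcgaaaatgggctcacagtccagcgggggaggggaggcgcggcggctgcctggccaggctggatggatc
Klf4–Gm26657, chr4:55929354-55929554: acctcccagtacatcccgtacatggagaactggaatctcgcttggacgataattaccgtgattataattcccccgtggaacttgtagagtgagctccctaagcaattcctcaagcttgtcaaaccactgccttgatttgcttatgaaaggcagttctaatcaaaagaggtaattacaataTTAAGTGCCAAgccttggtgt
Lrrtm3–Reep3, chr10:66920420-66920620: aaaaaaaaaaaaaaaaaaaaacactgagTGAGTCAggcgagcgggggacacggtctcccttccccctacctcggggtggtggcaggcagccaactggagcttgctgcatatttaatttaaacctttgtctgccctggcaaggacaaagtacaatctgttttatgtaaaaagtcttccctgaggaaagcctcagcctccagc
Rad51b–Zfp36l1, chr12:79929958-79930158: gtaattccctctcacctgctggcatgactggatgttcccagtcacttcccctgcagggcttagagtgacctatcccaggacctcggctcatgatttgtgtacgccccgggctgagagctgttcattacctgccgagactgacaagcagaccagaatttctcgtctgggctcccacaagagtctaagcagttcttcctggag
Among these 9 windows, 4 hold a capitalised match and 5 hold none. Motifs outside the 8 are not capitalised. One, the glucocorticoid receptor letters (ACANNNTGT), was looked at once the values were known. It matched in the Lpp–Tprg, Nnmt–Zbtb16, Irf2bp2–Tomm20, Slc30a5–Pik3r1 and Lrrtm3–Reep3 windows. The Actbl2–Gpbp1, Agtr1b–Tbl1xr1 and Klf4–Gm26657 windows did not hold it. Among all far summits 11.7% held it, against 7.63% of windows 1000 bp away. Over the 15 strongest far summits, 11 held at least 1 of the 8 motifs. The Agtr1b–Tbl1xr1 window was the richest in G and C of the 9, at 60.7%, and the Nnmt–Zbtb16 window the poorest, at 37.8%.

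Another 4 windows show the motifs in place, picked once the values were known. The first 3, 50 bp to each side of the summit, belong to the strongest far summits with an AP-1 match within 25 bp. The last, 100 bp to each side, is the single far summit that held 4 of the 8 motifs.
Cdh26–Cdh4, chr2:178924861-178924961: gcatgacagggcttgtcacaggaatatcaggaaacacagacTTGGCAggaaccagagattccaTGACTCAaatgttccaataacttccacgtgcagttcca
Klf4–Gm26657, chr4:56582555-56582655: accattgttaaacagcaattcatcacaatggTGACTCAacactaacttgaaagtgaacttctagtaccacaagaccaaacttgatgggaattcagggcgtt
Jag1–Btbd3, chr2:138099952-138100052: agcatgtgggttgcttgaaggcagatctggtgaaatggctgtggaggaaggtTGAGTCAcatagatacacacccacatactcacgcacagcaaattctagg
Myocd–Map2k4, chr11:65597396-65597596: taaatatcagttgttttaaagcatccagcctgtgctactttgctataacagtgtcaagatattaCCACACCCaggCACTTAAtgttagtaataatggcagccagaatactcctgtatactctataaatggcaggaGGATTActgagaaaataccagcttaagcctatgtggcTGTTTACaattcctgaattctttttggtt
The last window lies between Myocd, a co-activator of smooth muscle genes, and Map2k4, and holds matches for KLF, NKX, PITX and FOX in that order.

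Signal at the far summits was as high as at distal summits closer to genes. The median signal was 29.8 for the 845 far summits (quartiles 24.5 and 37.5), against 29.4 for the 2609 summits 10 to 100 kb from a start and 32.1 for the 2953 promoter summits, within 1 kb of a start. Values ran between 7.68 and 207 at far summits. The median distance to the nearest start was 180 kb (quartiles 131 and 279 kb). Of the 845, 490 lay 100 to 200 kb away, 169 at 200 to 300 kb, 133 at 300 to 500 kb, 50 at 500 to 1000 kb and 3 beyond 1000 kb. Median signal in those bins was 29.7, 30.0, 31.2, 28.9 and 32.5, so strength showed no steady change with distance. Next to the limit, a summit 100050 bp from a start of Spata13 had a signal of 32.0, and one 99976 bp from a start of Fosl2 had 18.3.

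Bases beyond 100 kb make up 994.1 of 2559.4 Mb, or 38.8% of the sequenced chromosomes. Far summits were sparse there, at 0.85 per Mb, against 4.4 other optimal summits per Mb in the rest of the genome. Chromosome 13 had 101 far summits, or 2.16 per Mb of such bases, and chromosome X had 2, or 0.0291 per Mb. Chromosome X held 70 optimal summits in all. The far summits fell into 700 regions of overlapping peaks, and 284 of them shared a region with another optimal peak, so neighbours in a region are not independent sites.

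Both library lists held most far peaks, as they did of all optimal peaks. A peak of the library's own list had its summit inside the far peak for 810 of 845 in replicate 1, with a median signal of 16.0, and for 814 in replicate 2, also with a median of 16.0. Both lists held 782 far peaks (92.5%), replicate 1 alone 28, replicate 2 alone 32 and neither 3. Of all optimal peaks, 88.8% were in both lists. The optimal set was drawn from the pooled and library lists, so presence in them is favoured for any optimal peak. The ratio of replicate 1 to replicate 2 signal had a median of 0.999 (quartiles 0.686 and 1.39). Of the 845, 616 (72.9%) were in both lists and within 2-fold, against 71.7% of all optimal peaks. Each list is scaled separately, so the ratio and the 2-fold count describe the listed values and do not measure agreement between libraries. The ranking of far peaks differed between the libraries. Across the 782 peaks in both lists, Pearson's r of log2 signal was 0.214 and Spearman's rho 0.147, against 0.33 and 0.261 over 2332 summits at 10 to 100 kb and 0.654 and 0.537 over promoter summits. These correlations are across peaks selected for passing a signal-based threshold, and overlapping peaks can share a peak of a replicate list.

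The strongest far peaks were strong in both libraries. In the list of replicate 1 the 15 strongest had signals between 23.4 and 104, and in that of replicate 2 between 26.1 and 105, and all 15 were in the conservative set. Of all 845, 318 (37.6%, exact 95% interval 34.4 to 41.0%) ranked among the 7737 strongest peaks of both lists, against 42.8% of all optimal summits. At the weak end, 41 far peaks had a signal under 12, ranked between 67255 and 298847 in the pooled list, and 34 of these overlapped a stronger optimal peak.

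**Figure D1:**
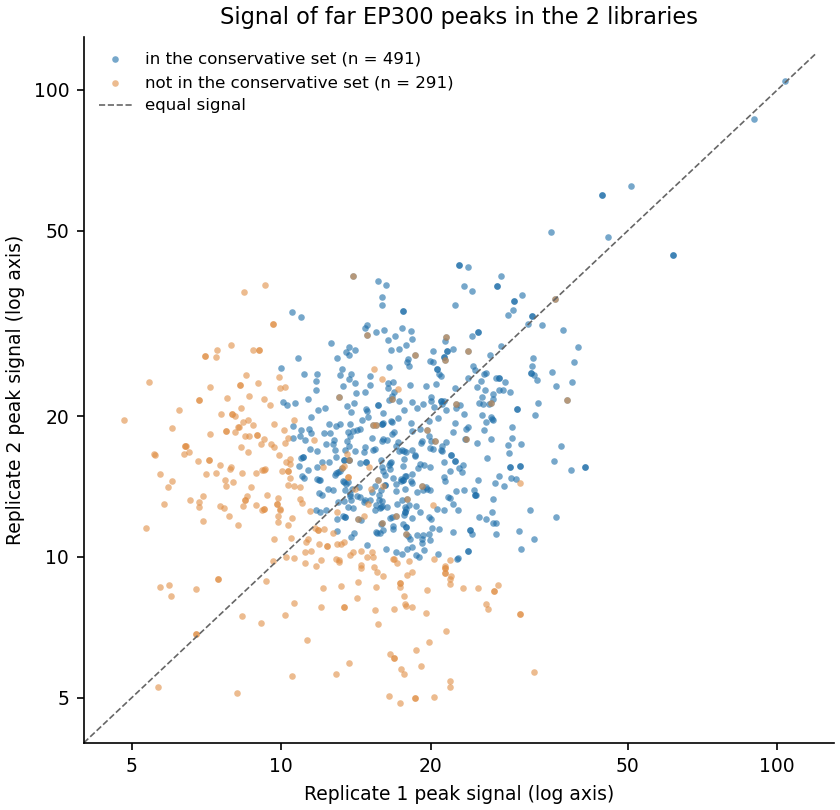
Each point is a far EP300 peak found in both library lists (782 peaks), with its replicate 1 signal on the x axis and its replicate 2 signal on the y axis, both log axes; blue points are in the conservative set and orange points are not. A few peaks lie near the dashed line of equal signal above 50 in both libraries, while below that the cloud is round, with a Spearman's rho of 0.147. The lists are scaled separately, so the line is a guide and not a measure of agreement.

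Of the far peaks, 509 (60.2%, exact 95% interval 56.8 to 63.6%) had an identical peak in the conservative set. The share was 59.0% of summits at 10 to 100 kb, 65.5% of promoter summits and 61.3% of all optimal summits. The conservative set itself held 740 summits beyond 100 kb among 6972, so it also had far peaks without an identical optimal peak. The far share was close to that of all optimal summits. By an overlap of at least 1 bp, 558 far peaks (66.0%) met a conservative peak, against 69.7% of all optimal peaks. The share with an identical conservative peak followed signal, at 93.4, 82.0, 42.2 and 23.6% in 4 groups of equal size in falling order of signal. Over all optimal peaks the shares were 97.2, 78.4, 44.9 and 24.7%, so this order was not particular to far peaks.

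Genes of developmental regulator families flanked a larger share of far summits than of the bases beyond 100 kb. The list holds 771 genes, 472 transcription factors and 299 signalling genes. They were chosen by family name, with earlier results of these data known. One of them had the nearest start on the left or the right of 290 far summits (34.3%, exact 95% interval 31.1 to 37.6%), against 14.5% of summits at 10 to 100 kb and 19.4% of all bases beyond 100 kb. Both sides held a listed gene for 41 far summits (4.85%), against 2.22% of summits at 10 to 100 kb and 1.73% of bases. Counted by summit, the gap was wider for transcription factors than for signalling genes. By gene, 14.8% of the listed transcription factors and 14.7% of the signalling genes flanked a far summit. Transcription factors flanked 25.7% of far summits, against 11.0% of bases, while signalling genes flanked 10.2% of far summits (exact 95% interval 8.22 to 12.4%), against 9.08% of bases. The binomial intervals treat summits as independent, which summits of one interval are not.

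Counted by interval rather than by summit, the same order held. There were 2531 stretches over 200 kb between neighbouring coding starts, and 388 of them held a far summit. A listed gene bounded 112 of the 388 with a far summit (28.9%), against 321 of the 2143 without one. Stretches with a far summit were longer, with a median of 564 kb, against 355 kb without. Within stretches of 200 to 400 kb the shares were 23.0% with a far summit and 13.3% without, within 400 to 800 kb 30.7% and 17.6%, and over 800 kb 32.5% and 16.3%. Bound by listed genes at both ends, 12 of 41 stretches held a far summit, and bound by one such gene, 100 of 392 did, against 276 of 2098 bound by none.

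**Figure D2:**
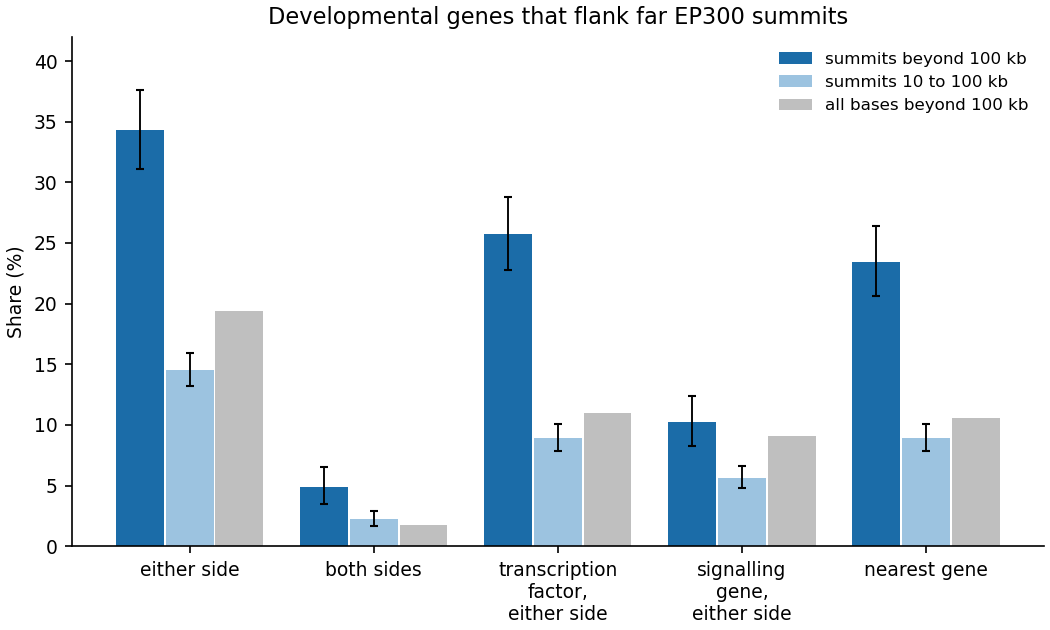
Bars give the share, in percent, of EP300 summits beyond 100 kb, of summits 10 to 100 kb from a start and of all bases beyond 100 kb, whose flanking coding genes belong to the developmental list; error bars are exact 95% binomial intervals and the bars for bases are exact sums. The dark bar is above both others for either side (34.3%), transcription factors (25.7%) and the nearest gene (23.4%), and its interval reaches the bar for bases for signalling genes.

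Far summits were spread over 388 intervals, of which 209 held 1 each. The 10 richest held 138 of 845 (16.3%), and 33 intervals with 5 or more held 276. Where a dense stretch inside an interval is given below, it is the 100 kb with most far summits, picked from these same summits. Overlapping peaks count separately there, and no expected count was worked out. Klf genes, zinc-finger transcription factors with roles in epithelial growth and differentiation, bounded 3 of the 10. The last 2 of the 10 were tied at 8 far summits with the interval between Klf6 and Pitrm1, and were taken for their higher maximum signals, 64.9 and 51.7, against 45.8.

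The richest interval, 815.4 kb between Rad51b, a homologous recombination gene, and Zfp36l1, which encodes a protein that promotes decay of AU-rich messenger RNAs, held 27 far summits. Of these, 14 lay in introns of Rad51b, and 11 lay within a stretch 210 to 304 kb from its start. The strongest, at chr12:79929778-79930337 and 183 kb from Zfp36l1, had a signal of 63.6, with 28.7 in replicate 1 and 33.0 in replicate 2. Over the interval, replicate 1 signals ranged between 5.42 and 31.7 and replicate 2 signals between 5.61 and 38.3, so the strongest peak of the pooled signal was near the top of each. Zfp36l1 had a promoter summit and was nearest to 9 summits within 100 kb, whereas Rad51b had no promoter summit and was nearest to 1.

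Between Slc30a5, a zinc transporter, and Pik3r1, the regulatory subunit of phosphoinositide 3-kinase, 859.1 kb held 18 far summits and no intronic one. The strongest, at chr13:101092595-101092756, had a signal of 111, with 44.3 in replicate 1 and 59.7 in replicate 2. It lay 259 kb from Slc30a5 and 600 kb from Pik3r1. Neither gene had a promoter summit in the optimal set.

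Klf4, a transcription factor of differentiating epithelia, was the left neighbour of 17 far summits at 397 to 1078 kb, of which 15 were in the conservative set. The closest to Klf4, at 397 kb (chr4:55929174-55929733), was also the strongest, at a signal of 82.1, with 34.9 in replicate 1 and 49.7 in replicate 2. The right neighbour, Gm26657, is a predicted coding gene. Klf4 had no promoter summit, and 1 optimal summit within 100 kb was nearest to it.

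Klf5, a factor of proliferating epithelial cells, and Klf12 bounded 17 far summits, 16 of them nearer to Klf5. Of the 17, 10 lay in a stretch 279 to 332 kb from Klf5, with a median signal of 41.8, and 8 of those 10 were in the conservative set. Inside that stretch a peak at chr14:99605340-99605899 had a signal of 68.4, with 39.0 in replicate 1 and 26.1 in replicate 2. A second, at chr14:99608885-99609444, had 65.9, with 23.4 in replicate 1 and 38.0 in replicate 2. The libraries ordered these neighbours differently.

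Klf3 shared 8 far summits with Tbc1d1, a Rab GTPase-activating protein, and its strongest lay 177 kb from Klf3, with a signal of 64.9, 38.5 in replicate 1 and 23.7 in replicate 2. Klf6 flanked 15 far summits on its 2 sides, 10 of them in the conservative set, and 11 optimal summits within 100 kb were nearest to it. Klf7 was nearest to 4 far summits, all in the conservative set. Klf5, Klf6 and Klf3 had a promoter summit, and Klf4 and Klf7 did not.

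The growth regulator Myc was the right-hand neighbour of 14 far summits in the 1062 kb that follow A1bg, 10 of them in the conservative set. Their replicate 1 signals ranged between 7.52 and 26.7 and their replicate 2 signals between 12.8 and 21.8, with none above 46.9 in the optimal set. Meis1, a homeobox gene expressed in gut mesenchyme, was nearest to 10 of 11 far summits that it shared with Etaa1, and 7 of the 11 lay 252 to 303 kb from its start. The strongest, 397 kb from Meis1, had a signal of 52.6, with 18.3 in replicate 1 and 30.4 in replicate 2.

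The remaining 3 of the 10 intervals held 9, 9 and 8 far summits. All 9 between Babam2 and Fosl2, a subunit of AP-1, lay in introns of Babam2. Of the 9 between Tmx1 and Frmd6, a FERM-domain gene of the Hippo pathway, 3 were in the conservative set, the lowest count of the 10 intervals. There the strongest had 30.3 in replicate 1, the highest of the 9, and 7.55 in replicate 2, the lowest of the 9. Hes1, a Notch-responsive repressor, was nearest to 5 of 8 far summits between Opa1 and Hes1, and 5 of the 8 lay 119 to 162 kb from Hes1.

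**Figure D3:**
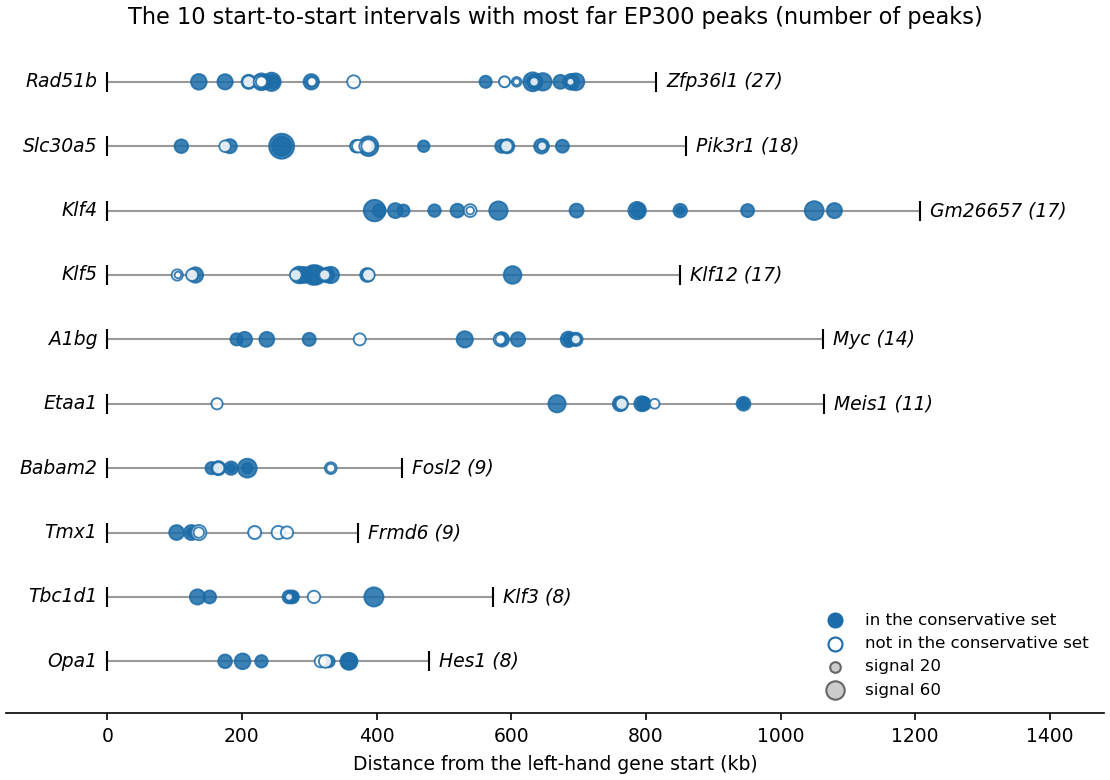
Each row is a stretch between neighbouring coding starts, drawn from the left-hand start (0 kb) to the right-hand start, with far EP300 summits as circles whose area follows peak signal; filled circles are in the conservative set and the number of far summits stands in brackets. The densest 100 kb, picked from these same summits, held 10 of 17 beside Klf5, at 279 to 332 kb, and 5 of 17 beside Klf4. Overlapping peaks are drawn separately.

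Single peaks of highest signal had other neighbours. The strongest, at chr16:25059211-25059567 between Lpp, a LIM-domain adhesion protein, and Tprg, had a signal of 207, with 104 in replicate 1 and 105 in replicate 2. Its summit lay 242 bp from a start of the long non-coding RNA gene A230028O05Rik, so it was far from coding starts alone. The next, at chr9:48723574-48723886, had 170, with 89.6 in replicate 1 and 86.7 in replicate 2. It lay in an intron of Zbtb16, a zinc-finger repressor, 112 kb from its start.

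A peak at chr8:126736423-126736982, 143 kb from the co-repressor gene Irf2bp2, had a signal of 113, with 50.7 in replicate 1 and 62.2 in replicate 2. One between Actbl2 and Gpbp1 had 103, with 61.6 in replicate 1 and 44.3 in replicate 2. One 140 kb from Tbl1xr1, a subunit of nuclear co-repressor complexes, had 87.6, with 45.5 and 48.5 in replicates 1 and 2. One 114 kb from Reep3 had 70.8, with 23.8 in replicate 1 and 41.8 in replicate 2, and lay 218 bp from the non-coding gene Gm26576. These were all in the conservative set. Others of the 15 strongest, besides those in the Klf5 and Slc30a5 intervals, lay in an intron of Lpp (67.0), between Cd109 and Col12a1 (66.5) and between Fam83b and Tinag (65.5), with the signal of the optimal set in brackets. The far peaks narrower than the full width of 560 bp numbered 4, with signals of 207, 170, 111 and 103.

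The most distant far summit lay 2235 kb from Celf4 and 2284 kb from Pik3c3, on chromosome 18, with a signal of 32.5, 13.6 in replicate 1 and 17.7 in replicate 2. A summit 1537 kb from Pcdh9, a protocadherin gene, was second and had 41.7, with 20.6 and 23.4 in replicates 1 and 2. Both were in the conservative set. Among the 10 most distant, 3 lay between Zeb2, a repressor with roles in neural crest, and Acvr2a, an activin receptor gene, with signals of 12.9, 19.4 and 18.5. None of the 6 far peaks in that interval was in the conservative set, and 3 of the 6 had no peak in the list of replicate 1. One 845 kb from Gata3 had 54.6, with 25.8 in replicate 1 and 24.8 in replicate 2. The other 4 lay between Stpg2 and Pdha2, Agtr1b and Tbl1xr1, 4931400O07Rik and Gm6760, and Inhba and Sugct, at signals of 24.8, 44.3, 26.8 and 43.2.

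Of the developmental transcription factors, 70 of 472 (14.8%) flanked a far summit, and of the signalling genes 44 of 299 (14.7%), against 719 of all 21681 coding genes (3.32%). Only a gene at an end of a stretch over 200 kb between coding starts can flank a far summit, so these shares also depend on gene spacing. By summit, transcription factors flanked 25.7%, against 11.0% of far bases, and signalling genes 10.2%, against 9.08%. The signalling genes with most were Hes1 with 8, Acvr2a with 6, the ephrin ligand gene Efna5 with 5 and, tied at 4, the semaphorin receptor gene Plxna2 and Igf1r. None of the Plxna2 summits was nearest to it, at 1057 to 1102 kb. The small tissue lists below were chosen with earlier results of these data known and share genes with the developmental list. They are given as counts, most of them with a share, and were not tested.

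Of 26 gastric epithelial genes, 9 flanked a far summit (34.6%, against 3.32% of all coding genes). Besides Klf4 and Klf5 these included Sox2, a factor of the foregut and stomach, with 7 far summits, all in the conservative set, at 159 to 660 kb. Its strongest, at 175 kb, had a signal of 54.2, with 26.6 in replicate 1 and 19.8 in replicate 2. Trp63, a factor of stratified epithelia such as that of the forestomach, flanked 9, its strongest with 52.4, 23.8 in replicate 1 and 27.6 in replicate 2. Foxq1, a forkhead gene expressed in the stomach, flanked 5, all in the conservative set. Shh, an epithelial ligand, flanked 3 at 163, 332 and 563 kb, with signals of 33.3, 30.2 and 41.0. Esrrg, Grhl2 and Sox9 flanked 1 each, with signals of 36.5, 25.5 and 20.5, and of these only the summit beside Esrrg was in the conservative set. Foxq1, Shh, Esrrg, Grhl2 and Sox9 fall outside the rule for named genes and were picked once their values were known, as were Klf7, and, below, Pitx1.

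Of 30 gastric mesenchymal genes, 12 flanked a far summit (40.0%). They included Meis1 with 14, Zeb2 with 6, of which 1 was nearest to it, and the nuclear factor gene Nfia with 4. Pitx1, a homeobox gene of the hindlimb and foregut mesenchyme, flanked 3, of which the nearest, at 101 kb, had 61.1, with 32.0 in replicate 1 and 25.7 in replicate 2. That summit lay just past the limit of 100 kb.

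Of 30 smooth muscle genes, 2 flanked a far summit (6.67%, against 3.32% of all coding genes): Myocd with 5 and the potassium channel gene Kcnma1 with 3. None of the Kcnma1 summits was nearest to it, at 539 to 795 kb. The strongest of Myocd, at 166 kb, had 44.3, with 14.8 in replicate 1 and 20.7 in replicate 2, and 2 of its 5 were in the conservative set. Of 15 enteric neuron and glia genes, 4 flanked a far summit (26.7%). Apart from Zeb2 these were Hand2 with 3, none in the conservative set, Tbx3 with 2 and Gfra1 with 1. Of 13 endothelial genes 3 did (23.1%): Cdh5, Ets1 and Emcn. Of 24 matrix genes 6 did, led by Col12a1 with 7, Col3a1 with 2 and Fn1 with 2. Of 30 neural adhesion and other long genes 8 did (26.7%), led by Auts2 and Nkain3 with 3 each and Cdh4 with 2. Every one of these tissue lists stood above the 3.32% of all coding genes, the matrix and neural lists included. A share above 3.32% was therefore not particular to the gastric lists. No far summit flanked by Gfra1, Ets1, Col12a1, Fn1, Nkain3 or Cdh4 was nearest to that gene. Bulk tissue does not show in which cells a site was bound, and a smaller number of cells of a type cannot be told apart from weaker binding in each cell.

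The labelled tissue was checked against fixed markers by their neighbouring summits, which is not a measure of expression. A far summit flanked 3 of 10 gastric mesenchyme markers (Pitx1, Foxf1 and Hlx), 3 of 10 gastric epithelial markers (Sox2, Klf5 and Trp63), 1 of 8 smooth muscle markers (Myocd) and 1 of 4 endothelial markers (Cdh5). An optimal summit within 100 kb had its nearest start at 5 of 8 smooth muscle markers (Acta2, Actg2, Myh11, Tagln and Myocd), 2 of 10 gastric mesenchyme markers (Barx1 and Pitx1), 3 of 10 gastric epithelial markers (Sox2, Klf5 and Trp63) and 0 of 4 endothelial markers. None of 4 enteric neuron and glia markers, of 3 blood markers or of 6 markers of other organs flanked a far summit or was nearest to another optimal summit within 100 kb. Of all coding genes 3.32% flanked a far summit, and the share nearest to a summit within 100 kb is not given. With lists this short, these counts do not test the tissue label.

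Introns held 194 far summits (23.0%, exact 95% interval 20.2 to 25.9%), against 44.1% of summits at 10 to 100 kb and 19.1% of all bases beyond 100 kb. Another 649 were intergenic and 2 lay in an exon annotated to Sox6. An intron over 100 kb held 88 far summits (10.4%), against 8.16% of summits at 10 to 100 kb and 10.1% of bases. So long introns held about the share of far summits that they hold of far bases. The containing intron had a median length of 96.5 kb (quartiles 41.8 and 206 kb). The nearest start belonged to the host gene for 141 of the 194. Intronic far summits had a median signal of 28.6 and 55.2% were in the conservative set, against 30.3 and 61.9% for intergenic ones.

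The 194 lay in 103 host genes, 56 of them with 1. Rad51b held 14 and Babam2, a subunit of a BRCA1 complex, 9. Lpp, the RNA-binding protein gene Rbms3 and Lrmda held 5 each. Tprg, Nfia, Igf1r, the growth factor receptor gene, and Zfp407 held 4 each, and Zbtb16 was one of 8 hosts with 3. The introns that held them reached 569.1 kb in Lrmda, 424.5 kb in Zfp407, 330.4 kb in Rad51b and 257.9 kb in Nfia. In Igf1r, 4 summits in a 160.6 kb intron were all nearer to a start of Pgpep1l. Hosts of the developmental list held 34 of the 194. Introns of over 1000 kb, in annotated models of Gm20388, Fgfr2 and Gm37240, held 4 far summits, whose flanking starts belonged to other genes.

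Non-coding genes were not used to choose the summits. A long non-coding RNA gene contained 149 far summits (17.6%, exact 95% interval 15.1 to 20.4%), against 12.5% of summits at 10 to 100 kb and 8.57% of bases beyond 100 kb. A start of such a gene lay within 1 kb of 42 (4.97%), against 5.9% at 10 to 100 kb. Those 42 had a median signal of 31.4. When starts of all GENCODE genes were counted, non-coding ones included, 115 summits remained beyond 100 kb.

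Repeats were scarce at far summits. The summit base was masked as repeat for 103 (12.2%), against 10.9% at 10 to 100 kb and 37.5% of all bases beyond 100 kb. The window of 201 bp had a median G and C content of 43.8%, against 47.3% at 10 to 100 kb and 42.8% in the flanks of the far summits.

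Short motifs were searched, on both strands, in the 201 bp at each summit and in windows of the same length centred 1000 bp to each side. Matches of different motifs can share bases, as those of NKX and NFI do in the Klf4–Gm26657 window printed above. AP-1, the dimer of Fos and Jun proteins, matched at 128 far summits (15.1%, exact 95% interval 12.8 to 17.7%), against 4.14% of their flanks, 14.3% of summits at 10 to 100 kb, 3.39% of promoter summits and 9.74% of all optimal summits. The median distance between match and summit was 46.5 bp, about midway between the summit and the window edge at 100 bp, so matches were spread over the window. Far summits with a match had a median signal of 31.7, against 29.5 without one. GRHL, bound by grainyhead factors of epithelia, matched at 46 (5.44%), against 1.12% of flanks, the largest ratio of the 8 at 4.84, and against 6.78% at 10 to 100 kb.

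The FOX motif of forkhead factors matched at 73 far summits (8.64%), against 3.08% of flanks and 5.86% at 10 to 100 kb. The CEBP motif matched at 17 (2.01%), against 0.592% of flanks. NKX matched at 42 (4.97%), against 2.37% of flanks and 2.64% at 10 to 100 kb. PITX, the letters bound by paired-type homeobox factors such as Pitx1, matched at 138 (16.3%), against 8.17% of flanks, 10.8% at 10 to 100 kb and 8.65% of all optimal summits. For PITX the lower end of the exact 95% interval was 13.9% at far summits, above the share at 10 to 100 kb. FOX, NKX and PITX were among 8 of 43 motifs picked by their ratios at these same far summits. That choice favours higher far shares, so these gaps show no difference between classes. Far summits were poorer in G and C than those nearer to genes, as given above, and the part of this in the matches of letter strings was not tested.

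The NFI arm matched at 173 (20.5%), against 10.7% of flanks and 17.3% at 10 to 100 kb. KLF matched at 22 (2.6%), against 1.3% of flanks and 4.79% at 10 to 100 kb, so the letters bound by Klf factors were rarer at far summits than nearer to genes. In the Klf4 interval no far summit held the KLF motif, and in the Klf5 interval 1 did. At least 1 of the 8 motifs was found at 478 far summits (56.6%), against 49.0% at 10 to 100 kb and 23.3% of promoter summits. The 8 were picked by their ratios at these same far summits, so this comparison favours the far class by design and shows no difference between classes. TEAD (GGAATG), not among the 8, matched at 119 (14.1%), against 10.7% of flanks and 17.5% at 10 to 100 kb, and 18 far summits held both AP-1 and TEAD.

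**Figure D4:**
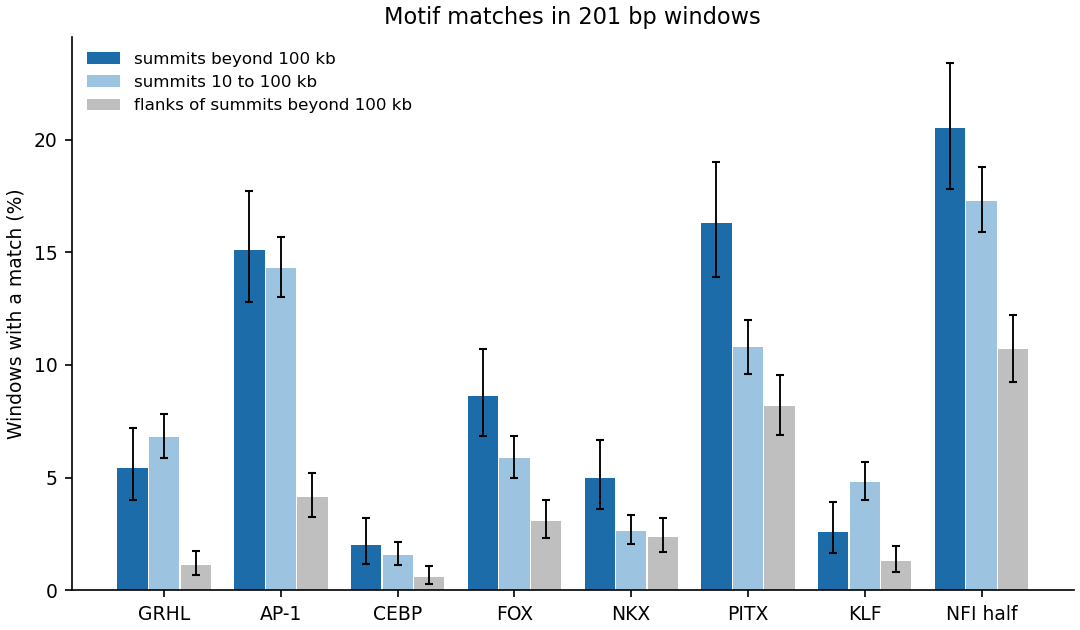
Bars give the percent of 201 bp windows with a match, for EP300 summits beyond 100 kb, summits 10 to 100 kb from a start and windows 1000 bp from the far summits, with exact 95% binomial intervals. AP-1 and GRHL stand at like heights in both classes of summit, and PITX, NKX and FOX are higher beyond 100 kb. The motifs shown were picked by their ratios at the far summits, which favours that class.

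Of 5 motifs followed in 50 bp bins, AP-1 and GRHL had their highest shares in the bins next to the summit and FOX in the bin left of it. AP-1 was found in the bin left of the summit at 39 far summits (4.62%) and in the bin right of it at 36 (4.26%). FOX had 30 and 17, and GRHL 15 and 15. TEAD had 38 in each, and its highest share, 4.97%, lay in bins 325 and 425 bp left of the summit.

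**Figure D5:**
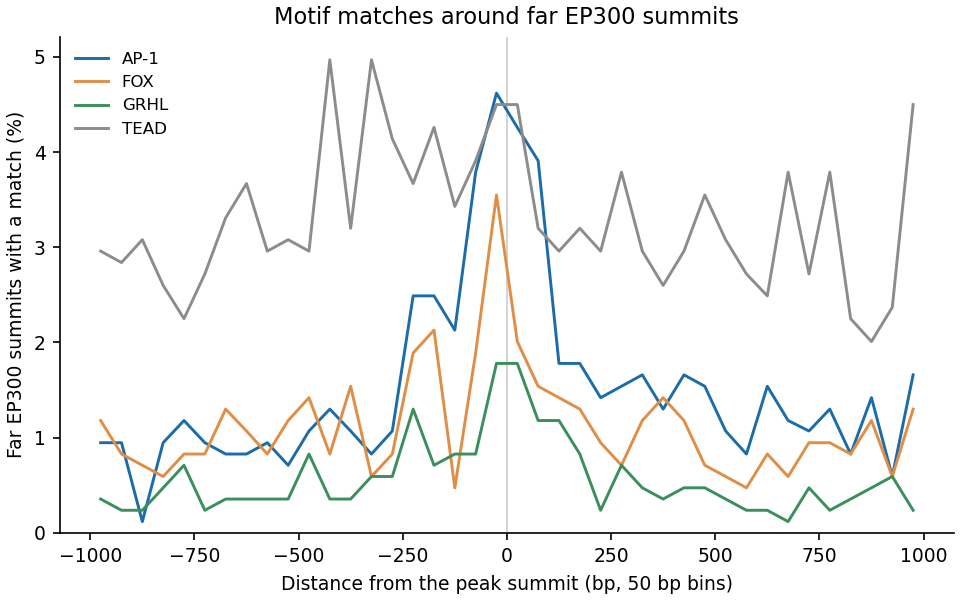
Lines give the percent of the 845 far EP300 summits with a motif match in each 50 bp bin, from 1000 bp left to 1000 bp right of the summit. AP-1 reaches 4.62% and FOX 3.55% next to the summit, while the TEAD line is uneven over the whole range.

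The AP-1 share was 14.9% for intronic and 15.1% for intergenic far summits, and 16.6% beside a listed developmental gene and 14.4% elsewhere. It was 18.5% above the median signal and 11.8% at or below it, with exact 95% intervals of 14.9 to 22.5% and 8.9 to 15.3%. By interval, AP-1 was found at 4 of 14 far summits beside Myc, 3 of 17 beside Klf5, 3 of 18 beside Pik3r1 and 1 of 27 beside Zfp36l1. The NFI arm was found at 8 of those 27 and PITX at 7 of the 18 beside Pik3r1. None of the 11 beside Meis1 held AP-1.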

How the data were processed

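Chromatin immunoprecipitation of EP300 was sequenced in 2 libraries of 1 group. The authors deposited 5 peak lists on mm10: one of 300000 peaks for each library and for the pooled reads, and optimal and conservative IDR sets. Per the readme texts, the IDR sets came from the pooled and library lists, and the optimal set holds 7737 peaks. The signal value, the q-value column (a score) and the IDR score of each peak are as the authors deposited them. Peak caller, aligner: not given in the sources used here. Depth is unknown.

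A summit is the peak start plus the deposited summit offset. Distances, flanking genes and introns came from GENCODE M21, and sequence from the RefSeq copy of GRCm38.p6. A library peak matched a far peak when its summit lay inside it, the strongest being used. Shares carry exact Clopper-Pearson 95% intervals, which cover counting error only. No test was run, since there is 1 group. Shares of bases are exact sums. Code was tested on simulated data. Python 3.11.15, pandas 2.3.3, NumPy 2.4.6 and SciPy 1.17.1 were used.

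The members, gene lists and motifs were chosen with earlier results of these data known. Named were the flanking genes of the 15 strongest and 10 farthest summits and of the 10 richest intervals, the 10 genes with most intronic summits, up to 4 genes of each list with most summits, and 8 of 43 motifs found at 10 or more far summits, by ratio of summit to flank. No sequence of chromosome 18 was shown. One gene that the rule names is not reported here.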

Additional observations from a re-analysis of the deposited data

How the results depend on the processing

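Of 54 alternatives, 31 stayed within the limits set and 23 moved. The number of far summits was 408 in the higher-signal part of the optimal set, 1526 beyond 50 kb, 355 beyond 200 kb and 115 with starts of all GENCODE genes; without replicate 1 or 2 it was 796 to 915. The share beside a developmental gene was 27.3% beyond 50 kb, 40.0% beyond 200 kb, 15.7% with all starts, when flanking genes are often non-coding, 25.7% with transcription factors alone and 10.2% with signalling genes alone. Leaving out a library gave 32.5 to 32.8%.

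The AP-1 share was 18.6% in the higher-signal part and 7.93% within 50 bp of the summit, and 12.6 to 13.7% without a library. The share among the strongest peaks of both lists was 64.7% in the higher-signal part, 31.3% with all starts and 28.3% when a library summit had to lie within 100 bp. The intronic share was 19.9% in the higher-signal part, 32.6% beyond 50 kb, 13.2% beyond 200 kb, 46.1% with all starts and 27.8% with basic transcripts, and 20.7 to 22.3% without a library. The share in the conservative set was 88.7% in the higher-signal part, 65.1% with 1 summit per region and 53.0% with all starts. The causes were not tested. No paired analysis was possible because there is 1 group and no test.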
